A study of Mus musculus with 8 samples.

Results

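The regions described here carried both a Mta2 peak and a Mbd3 peak and no Zbtb7a peak in kidney cortex of the mouse. They were chosen by merging the 3 deposited peak lists, on autosomes and chromosome X, into union regions whose intervals share at least 1 bp, and by keeping those that held the first 2 factors without the third factor. This left 17832 of 164813 union regions, or 10.8%. Of the 118984 regions that held both Mta2 and Mbd3, 15.0% had no Zbtb7a peak, and the remaining 101152 held all 3 factors and serve as the comparison below. Because the members were selected on the presence and absence of peaks, their fold enrichments, −log10 q values and widths are given as a description with no test.

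Chromatin came from cortex of 2-month-old animals of genotype Mta2flx/flx, that is, with Mta2 alleles flanked by loxP sites, and all groups shared this genotype, age and tissue. The 8 libraries comprised 2 each for Mta2, Mbd3, Zbtb7a and Input, and the labels put each at 100 M reads, sequenced from both ends. The labels name no Cre driver for these animals, and no group is labelled as a knockout. The study's title concerns focal segmental glomerulosclerosis after deletion of Mta2 in nephron progenitors, and these libraries map the factors in animals labelled only as floxed. The 3 lists held 149855 Mta2, 134248 Mbd3 and 124616 Zbtb7a peaks. Each list stands for both mice, so spread between mice could not be measured, and the intervals printed below are exact (Clopper-Pearson) 95% intervals that cover counting error only. Absence of a Zbtb7a peak means only that no enrichment passed the peak caller's threshold, not that Zbtb7a was absent.

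NuRD, the nucleosome remodelling and deacetylase complex, joins a chromatin remodelling ATPase of the CHD family to histone deacetylases. Mta2 is one of the scaffold subunits that hold the deacetylases, and Mbd3 belongs to the methyl-CpG-binding domain family but binds methylated DNA poorly. The complex is known for lowering histone acetylation at enhancers and promoters and for tuning genes as cells take on a fate. Zbtb7a is a DNA-binding repressor with a POZ domain and zinc fingers, and in human red cell precursors it is known to silence fetal globin genes and to bind NuRD subunits.

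The promoters under these regions included CpG-rich and CpG-poor sequences. Those of Oprd1, which encodes the delta opioid receptor, of Ntrk2, the receptor for brain-derived neurotrophic factor, of the homeobox gene Nkx6-2 and of Wnt3a, a secreted Wnt ligand, are shown because they lay under strong or wide members and held many CpGs. Those of Ogn, a small proteoglycan of connective tissue, and of Col3a1, the fibrillar collagen type III chain, are shown because they held few or none. Each sequence is the 250 bases before the annotated start, 5′ to 3′ on the gene's strand, from RefSeq for GRCm38.p6, which shares coordinates with mm10, and capitals mark CpG dinucleotides. Oprd1 lies at chr4:132144487-132144736 on the minus strand, Ntrk2 at chr13:58806319-58806568 on the plus strand, Nkx6-2 at chr7:139582798-139583047 on the minus strand and Wnt3a at chr11:59290752-59291001 on the minus strand. Ogn lies at chr13:49607765-49608014 and Col3a1 at chr1:45311288-45311537, both on the plus strand.
Oprd1: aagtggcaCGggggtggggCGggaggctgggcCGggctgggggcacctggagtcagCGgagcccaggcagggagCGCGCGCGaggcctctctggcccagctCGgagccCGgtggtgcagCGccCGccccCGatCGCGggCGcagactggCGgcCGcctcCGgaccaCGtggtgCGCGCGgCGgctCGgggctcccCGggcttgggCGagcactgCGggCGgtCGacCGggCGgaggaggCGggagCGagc
Ntrk2: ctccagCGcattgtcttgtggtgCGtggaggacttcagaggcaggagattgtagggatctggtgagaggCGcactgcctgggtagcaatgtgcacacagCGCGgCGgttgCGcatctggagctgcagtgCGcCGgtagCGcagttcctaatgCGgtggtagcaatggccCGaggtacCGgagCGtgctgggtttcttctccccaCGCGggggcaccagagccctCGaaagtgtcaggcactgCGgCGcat
Nkx6-2: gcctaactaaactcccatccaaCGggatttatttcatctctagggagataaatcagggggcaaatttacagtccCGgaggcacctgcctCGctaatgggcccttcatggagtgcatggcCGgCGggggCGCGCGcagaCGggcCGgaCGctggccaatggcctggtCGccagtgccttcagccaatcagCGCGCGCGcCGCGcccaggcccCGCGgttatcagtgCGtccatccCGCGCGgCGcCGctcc
Wnt3a: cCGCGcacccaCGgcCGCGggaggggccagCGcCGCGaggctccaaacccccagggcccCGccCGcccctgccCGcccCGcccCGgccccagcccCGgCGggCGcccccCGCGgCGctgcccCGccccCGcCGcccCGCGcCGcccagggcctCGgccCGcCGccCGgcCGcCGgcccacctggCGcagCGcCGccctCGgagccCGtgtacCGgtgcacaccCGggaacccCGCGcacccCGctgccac
Ogn: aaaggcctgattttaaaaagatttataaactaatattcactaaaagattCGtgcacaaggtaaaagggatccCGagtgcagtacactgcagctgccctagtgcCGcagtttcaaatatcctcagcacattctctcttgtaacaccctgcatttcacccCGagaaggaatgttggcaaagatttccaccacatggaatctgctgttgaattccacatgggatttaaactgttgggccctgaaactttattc
Col3a1: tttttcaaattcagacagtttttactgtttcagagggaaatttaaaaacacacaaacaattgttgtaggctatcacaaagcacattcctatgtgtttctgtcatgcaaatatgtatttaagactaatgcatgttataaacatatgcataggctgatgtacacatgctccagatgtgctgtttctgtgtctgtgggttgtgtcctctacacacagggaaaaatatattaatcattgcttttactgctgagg

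Wnt3a held 41 CpGs at 87.6% GC, Oprd1 34 at 80.0%, Nkx6-2 26 at 65.2% and Ntrk2 19 at 62.8%. Ogn held 4 CpGs at 42.0% GC, and Col3a1 held 0 at 35.2%. The Oprd1 promoter lay in a region of Mta2 fold 16.9 and Mbd3 fold 8.86, 16230 bp from the nearest Zbtb7a peak. Col3a1 lay in a region of Mta2 fold 6.26 and Mbd3 fold 3.03, with the nearest Zbtb7a peak 191228 bp away. Its Mbd3 fold was near the median of all members, 3.12. Regions without a Zbtb7a peak were thus called both over dense CpG sequence and over sequence with no CpG.

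Most members were weak and narrow beside 3-factor regions. Their median Mta2 fold, the authors' enrichment at the peak summit over background, was 3.65, with quartiles of 2.98 and 4.60, against 7.72 with quartiles of 4.80 and 13.8 in 3-factor regions. Median Mbd3 fold was 3.12, with quartiles of 2.72 and 3.62, against 6.46 with quartiles of 4.15 and 12. Ranked within the Mta2 list, members had a median percentile of 30.5, against 65.9 for 3-factor regions. In the Mbd3 list these percentiles were 21.5 and 61.4. Only 4 members were in the strongest 10% of the Mta2 list, and 0 were in that of the Mbd3 list. Median width was 344 bp in members and 638 bp in 3-factor regions, and members covered 6.96 Mb against 85.2 Mb. Regions of the other patterns were weaker and narrower than members. Median Mta2 fold was 2.92 with Mta2 alone and 3.13 with Mta2 and Zbtb7a. Median Mbd3 fold was 2.68 with Mbd3 alone and 2.82 with Mbd3 and Zbtb7a. Their median widths ran between 194 and 303 bp. Width and strength were bound up with the rule.

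**Figure D1:**
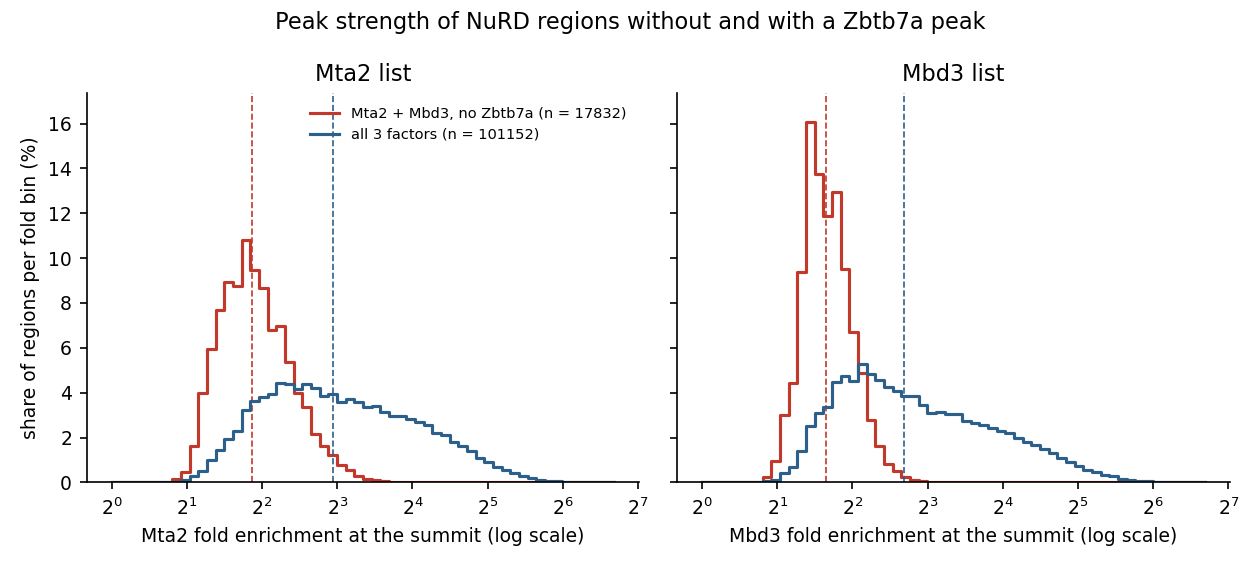
Share of regions (%) in equal bins of log fold enrichment for Mta2 (left) and Mbd3 (right), with members in red, 3-factor regions in blue and dashed lines at the medians. Members gather at low folds in both lists, with medians of 3.65 and 3.12 against 7.72 and 6.46 for 3-factor regions.

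The share of regions without Zbtb7a fell along the Mta2 fold. Among regions that held both NuRD subunits, it was 51.7% below a Mta2 fold of 2.5, 36.3% between 3 and 4, 15.5% between 5 and 6, 2.68% between 8 and 10, and 0.0520% (0.0297 to 0.0844) at 12 or more. That last bin held 16 members beside 30756 3-factor regions. The number of members rested on the thresholds of the lists: it was 3013 when Mta2 and Mbd3 peaks needed a −log10 q of at least 10, and 43131 when Zbtb7a peaks alone did. Across chromosomes the share ran between 12.6% on chromosome 7 and 17.3% on chromosome X.

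Inside the members the subunits lay close together but were loosely matched in strength. A single Mta2 peak and a single Mbd3 peak made up 17682 members (99.2%), and 150 held more. The summits of the subunits lay a median of 32 bp apart in members and 22 bp in 3-factor regions, and within 100 bp of each other in 88.7% of members and 93.1% of 3-factor regions. Because the rule asks for overlapping peaks and most members are narrow, short summit distances are largely set by the selection. The Mta2 fold exceeded the Mbd3 fold in 72.3% of members and 69.7% of 3-factor regions, on scales that can differ between antibodies. Across regions, Spearman's rho between both folds was 0.459 in members and 0.921 in 3-factor regions. The points share libraries and Input, the members span a narrower range of folds, and neighbouring regions are not independent, so rho is a description.

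**Figure D2:**
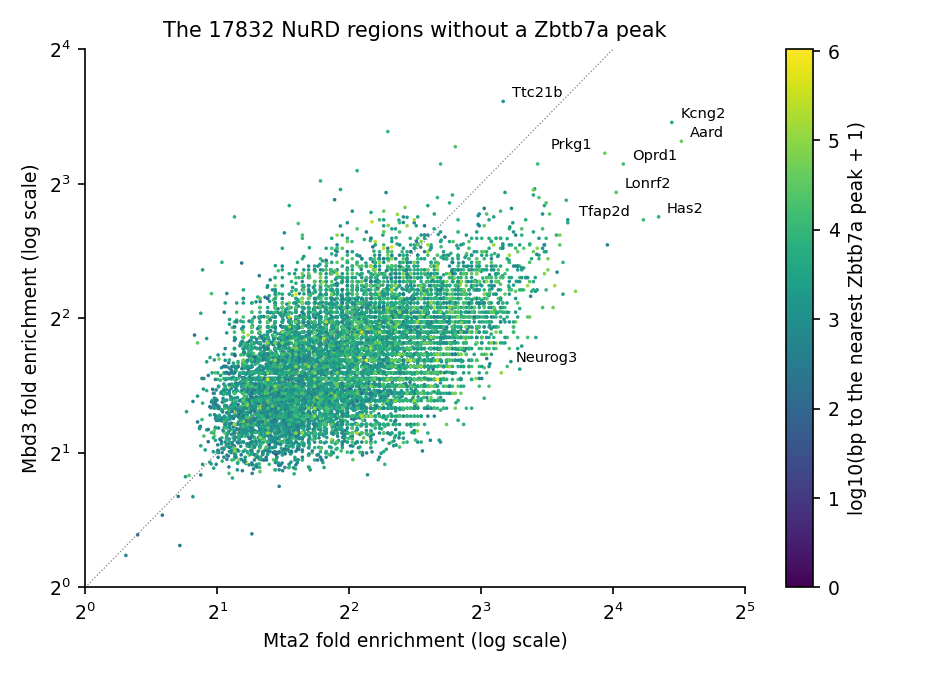
Mta2 fold (horizontal, log scale) against Mbd3 fold (vertical, log scale) for each of the 17832 members, coloured by log10 of the distance in bp to the nearest Zbtb7a peak plus 1, with the dotted line at equal folds. A few regions named by their nearest gene, led by Aard at 22.9 and 9.96, stand apart from a dense cloud at low folds.

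The strongest members formed a short list of named sites. The highest Mta2 fold, 22.9, belonged to an 863 bp region on chromosome 15 (52039954 to 52040816) whose summit lay 374 bp from an end of Aard, with a Mbd3 fold of 9.96 and no Zbtb7a peak for 47751 bp. Next came a region inside Kcng2, a modulatory subunit of voltage-gated potassium channels, at 21.8 for Mta2 and 11.0 for Mbd3. A region inside Has2, the main hyaluronan synthase, had 20.3 and 6.75. One inside Tfap2d, an AP-2 family transcription factor, had 18.8 and 6.65. These sites stood far above the median member, at 3.65 and 3.12.

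The Oprd1 region followed at 16.9 and 8.86, with its summit 74 bp from an end of the gene. Lonrf2, a RING finger protein gene, had a region at 16.3 and 7.65. The region inside Jakmip1, a microtubule-associated protein gene, had 15.5 and 5.84 and the closest Zbtb7a peak of these, at 505 bp. Prkg1, the cGMP-dependent protein kinase, held a region 143310 bp from its nearest end at 15.3 and 9.36. Neb, which encodes the muscle protein nebulin, held one at 13.1 and 4.60, and a region between genes, 15888 bp from Ankrd28, had 12.6 and 6.55. Of these 10 sites, 6 had no Zbtb7a peak within 10 kb.

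Ranked by Mbd3 instead, a 268 bp region inside Ttc21b, which encodes a transport protein of the primary cilium, came first at a Mbd3 fold of 12.2 and a Mta2 fold of 8.99. Its −log10 q of 429 for Mbd3 and 255 for Mta2 was higher than that of the Aard region, at 71.1 and 235, whose Mta2 fold was 22.9. A region inside Bmp6, a bone morphogenetic protein gene, had a Mbd3 fold of 10.5 and a Mta2 fold of 4.90. A region inside Trps1, a GATA-type zinc finger repressor gene, had 9.69 and 6.99. The order of members therefore differed between lists, although Kcng2, Aard, Prkg1 and Oprd1 were among the 10 highest in both.

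The strongest members at gene ends lay by receptors, signalling ligands and structural proteins among others. Gene end here means a summit within 1 kb of either end of a protein-coding gene, because the gene table gives no strand. After Aard, Oprd1 and Lonrf2, the highest Mta2 folds at a gene end were 12.1 at Nefl, the neurofilament light chain, and 12.1 at Dab1, the adaptor of reelin signalling. Ntrk2 had 11.7 and Cabp7, a calcium-binding protein, 11.2. Gdf7, a ligand of the bone morphogenetic protein family, had 10.8, the stem cell zinc finger gene Sall4 10.7 and the Wnt ligand gene Wnt6 10.6. Mbd3 folds at these 7 sites ran between 4.23 and 7.80.

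The widest member, 4370 bp on chromosome 10 (62127233 to 62131602), lay between genes, its summit 2581 bp from Neurog3, the bHLH factor of pancreatic endocrine progenitors. The corepressor gene Skor1 held 4072 bp, the bHLH gene Helt 4032 bp and Nkx6-2 3293 bp. Sox1, a factor of neural progenitors, held 3227 bp, the forkhead gene Foxb1 2856 bp and Wnt3a 2671 bp. The 10 widest also included a 2917 bp region inside Ptprn2, a protein of secretory vesicles, and a 2862 bp region inside Gnas, the imprinted locus of the stimulatory G protein alpha subunit. The Mta2 folds of these 9 named regions ran between 5.21 in Gnas and 10.5 in Ptprn2, and the widest was not the strongest.

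Members lay at gene ends less often than 3-factor regions did. Their summit fell within 1 kb of a gene end in 693 of 17832 regions, or 3.89% (3.61 to 4.18), against 14.1% (13.9 to 14.3) of 3-factor regions, a difference of -10.2 percentage points (95% Newcombe interval -10.6 to -9.85). They lay inside genes in 54.6% against 50.3%, and between genes in 41.5% against 35.6%. Every region falls in exactly 1 of these classes, so a lower share at gene ends by itself raises the other shares. The share at gene ends was lower in members than in 3-factor regions on 20 of 20 chromosomes. A low share was not particular to members. It was 3.70% with Mbd3 alone, 4.76% with Mta2 alone and 7.37% with Zbtb7a alone. With Mbd3 and Zbtb7a it was 6.14%, and with Mta2 and Zbtb7a 6.42%. The share of members was 2.16% with a window of 0.5 kb and 11.6% with one of 3 kb. With the starts of genes in the promoter table in place of both ends, which leaves out chromosome 18, 2.03% (1.83 to 2.25) of members lay within 1 kb of a start, against 11.4% (11.2 to 11.6) of 3-factor regions. Of the regions between genes, 28.9% of members and 21.6% of 3-factor regions were over 100 kb from a gene end.

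Much of that difference moved with strength. Between Mta2 folds of 3 and 4, 3.63% (3.18 to 4.12) of members and 6.10% (5.66 to 6.56) of 3-factor regions lay at a gene end, a difference of -2.47 percentage points (-3.10 to -1.82). Between 6 and 8 the shares were 4.52% (3.43 to 5.83) and 7.79% (7.36 to 8.23). At a fold of 12 or more they were 31.2% (11.0 to 58.7), from 5 of 16 members, and 27.4% (26.9 to 27.9), so no difference was detectable there. In regions over 1500 bp wide, 44.2% (29.1 to 60.1) of 43 members and 42.0% (41.1 to 43.0) of 3-factor regions lay at a gene end. The interval of the difference included 0 at Mta2 folds of 10 to 12, at 12 or more and at widths above 1000 bp, and excluded it in every other bin of fold or width.

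**Figure D3:**
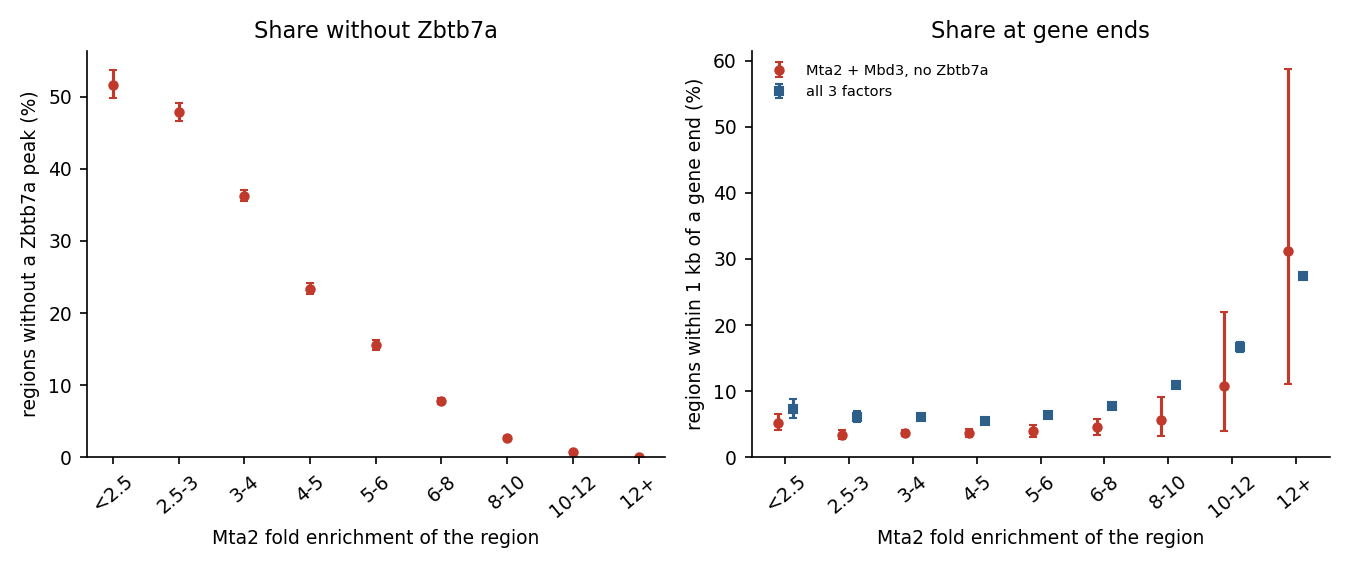
Left, share (%) of regions with both Mta2 and Mbd3 that lack a Zbtb7a peak, by Mta2 fold; right, share (%) of members (red circles) and 3-factor regions (blue squares) within 1 kb of a gene end, by Mta2 fold. Bars are exact 95% intervals of counting error; the left panel drops to 0.0520% at folds of 12 or more, and the right panel shows members lower until the last bin, at 31.2% against 27.4%.

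At the level of genes, 718 of 21627 protein-coding genes, 3.32%, had a member at an end, whereas 13561 genes, 62.7%, had a 3-factor region at an end. Of the 718 genes, 344 had no 3-factor region at either end, and 129 had no Zbtb7a summit anywhere in the gene or 1 kb around it. A member lay in the gene or 1 kb around it in 5274 genes, 24.4%, and 252 of those held no Zbtb7a summit. Genes that held a member had a median length of 63.4 kb against 11.9 kb for the other genes, so counts over whole genes moved with length.

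Some members at gene ends lay by developmental regulators. Over 16 families of homeobox, forkhead, Sox, T-box, zinc finger and bHLH factors and of Wnt, Gdf, Bmp and Fgf ligands, 36 of 290 genes (12.4%) had a member at an end, beside 3.32% of all genes. The same families had a 3-factor region at an end in 163 genes (56.2%), beside 62.7% of all genes. Among genes without a 3-factor region at an end, 27 of 127 in these families (21.3%) had a member there, beside 4.26% of all such genes, or 4.89% when olfactory receptors are left out. The families were grouped after values had been seen, so these counts are a description. Folds given for a gene below are those of its strongest member, in the gene or 1 kb around it.

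Within them, the Dlx and Msx homeobox group led with 5 of 9 genes. Dlx5, a factor of bone and forebrain development, held the strongest at a Mta2 fold of 7.20 and a Mbd3 fold of 3.73, and Dlx6, Dlx2, Dlx3 and Dlx4 held regions with Mta2 folds of 4.07, 3.99, 3.92 and 3.02. Some of these genes are neighbours, Dlx5 with Dlx6 and Dlx3 with Dlx4, and so are not independent. Among Nkx genes, 4 of 14 had a member at an end, among them Nkx6-2 at a Mta2 fold of 9.39, Nkx3-2 at 7.19 and Nkx1-1 at 3.96. Among neural and mesodermal bHLH genes, 5 of 34 did. These were Helt at 9.70, Twist2 at 7.51, Olig1 at 6.68, Hand2 at 5.11 and Hand1 at 3.65.

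Wnt ligands had 3 of 19, namely Wnt6, Wnt3a and Wnt3 at Mta2 folds of 10.6, 9.70 and 5.53. Forkhead genes had 5 of 44, led by Foxf2 at 7.71 and Foxb1 at 5.74. Hox genes had 4 of 39, with folds between 2.01 at Hoxa13 and 4.07 at Hoxd4. T-box genes had 2 of 13, Tbx20 at 7.09 and Tbx21 at 6.88. Pax, LIM homeobox, and Zic and Gli genes had 0 of 9, 0 of 12 and 0 of 8, and differences between families were not tested.

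Outside those families, GABA receptor subunits had 3 of 19 genes with a member at an end and collagens 5 of 44. The collagens included Col14a1, a fibril-associated collagen, with a region at 9.28 and Col3a1 with one at 6.26. Potassium channel genes had 3 of 80, led by Kcnc4 at 9.80, and cytochrome P450 genes 3 of 92, both near the 3.32% of all genes. Ribosomal protein, complex I and proteasome genes, which nearly all cells use, had a member at an end in 8 of 153 (5.23%) and a 3-factor region in 144 (94.1%). None of those 8 lacked a 3-factor region at an end. Olfactory receptor genes had 4 of 1106 (0.362%) and 0.904% with a 3-factor region.

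**Figure D4:**
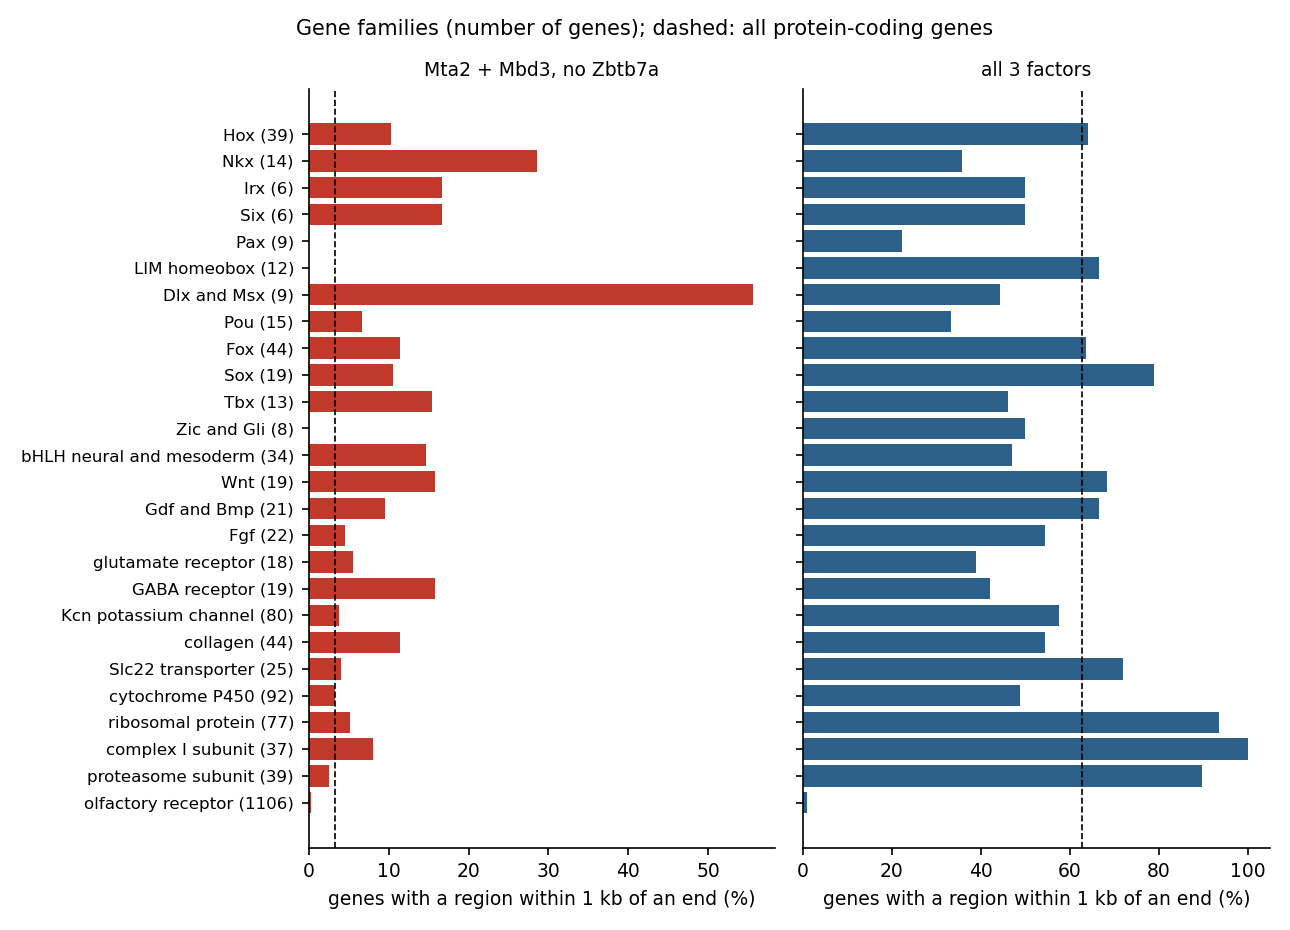
Share (%) of genes in each family with a member (left, red) or a 3-factor region (right, blue) within 1 kb of an end; the number of genes stands in parentheses and dashed lines give all protein-coding genes, 3.32% and 62.7%. Dlx and Msx genes stand highest on the left at 55.6%, while ribosomal, complex I and proteasome genes stand high on the right, with 5.19%, 8.11% and 2.56% on the left.

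Few genes of kidney cell types had a member at an end, as few genes did in general (3.32%). Podocyte genes, which mark the filtering epithelial cell that is injured in glomerulosclerosis, had 0 of 30 with a member at an end. A 3-factor region lay there in 27 of 30, beside 62.7% of all genes. Within the genes and 1 kb around them, 12 of 30 held a member. Of all genes, 24.4% did, the share to set beside each such count in the lists below. The 12 included Col4a3, a collagen chain of the glomerular basement membrane, at a Mta2 fold of 9.03. Arhgap24, a Rac regulator, held 22 members up to 7.61, and Clic5 had 7.41. Foxc1 and Foxc2 held none. Proximal tubule genes had 1 of 30 at an end and 13 of 30 in the gene. The endocytic receptor genes Cubn and Lrp2 held 4 and 7 members, with Mta2 folds up to 8.34 and 5.42, and the bicarbonate transporter gene Slc4a4 held 11, up to 5.21, while Aqp1 and Anpep held none.

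Genes of the thick ascending limb and distal tubule had 0 of 25 at an end and 15 of 25 in the gene, with up to 8 members each in Slc8a1, the sodium-calcium exchanger, and Stk39, a kinase that acts on salt transporters. Collecting duct genes had 2 of 24 and 5 of 24. One of the 2 was Hsd11b2, the enzyme that inactivates glucocorticoids in mineralocorticoid target cells, with a strongest region at 3.61, and Aqp2 held none. Nephron progenitor genes had 1 of 25 and 7 of 25, with Itga8, an integrin of kidney induction, at 6.88. Kidney transcription factor genes had 3 of 27 and 15 of 27, among them the steroid receptor genes Nr3c1 at 5.53 and Nr3c2 at 5.32, and Maf at 4.90. Gene length moved with these counts: the neuronal list, with a median length of 444 kb, had a member in 14 of 22 genes, and the ribosomal list, at 4.0 kb, in 1 of 30. The part of length in the other lists was not tested.

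In the other lists, endothelial genes had a member at an end in 1 of 18 and in the gene in 9 of 18. Stromal genes had 1 of 18 and 8 of 18, fibrosis and TGF-beta genes 2 of 20 and 12 of 20, and immune genes 0 of 18 and 0 of 18. NuRD subunit genes had 1 of 15 and 8 of 15, the gene with one at an end being Mbd2, the methyl-DNA-binding paralogue of Mbd3, with a strongest region at 6.88. Genes of the citric acid cycle and oxidative phosphorylation had 0 of 29 and 4 of 29, fatty acid oxidation and peroxisome genes 0 of 26 and 12 of 26, and polycomb genes 0 of 25 and 5 of 25. Ribosomal genes had 1 of 30 at an end, neuronal genes 2 of 22, germ cell genes 1 of 16 with 4 of 16 in the gene, and hepatocyte genes 1 of 18 with 3 of 18. Over all 409 listed genes, 17 had a member at an end and 143 in the gene, beside 3.32% and 24.4% of all genes.

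As a check of the tissue, 21 of 21 marker genes of cell types found in kidney held a 3-factor region. These included 3 endothelial and 3 immune markers, which are not particular to kidney. All 3 immune markers held one, against 7 of 18 genes in the immune list above. A member was held by 6 of the 21, beside 24.4% of all genes with one in the gene or 1 kb around it. Of 4 genes that define other organs, 4 held a 3-factor region and 2 held a member, so the peaks alone did not mark the tissue. Whether a member was occupied in many cells or in few cannot be told apart in whole cortex.

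Promoter sequence differed between members and 3-factor regions. Members overlapped the 250 bases before the start at 232 of 21019 promoters, or 1.10%. These held a median of 7 CpGs, with quartiles of 3 and 18, against 16 with quartiles of 9 and 23 at 13348 promoters under 3-factor regions and 2 at 6918 promoters without any region. At least 15 CpGs stood in 31.9% of promoters under members, 55.6% under 3-factor regions and 2.56% without a region. Members at promoters thus lay between 3-factor and region-free promoters in CpG content, which was not particular to them. Promoters under Mta2 alone and under Mta2 with Zbtb7a also had a median of 7 CpGs. At least 15 CpGs stood in 28.1% and 24.5% of those. Medians were 6 under Zbtb7a alone, 4.5 under Mbd3 with Zbtb7a and 3 under Mbd3 alone.

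CpG content was graded with strength. Promoters under members with a Mta2 fold below 4 held a median of 5 CpGs (101 promoters), those between 4 and 6 held 7 (66 promoters), those between 6 and 8 held 16 (43 promoters) and those at 8 or more held 19.5 (22 promoters). The medians under 3-factor regions in the same bins were 7, 8, 9 and 17. At least 15 CpGs stood in 20.8% of promoters under members and 15.2% under 3-factor regions below a fold of 4, and in 25.8% and 24.5% between 4 and 6. The shares were 53.5% and 29.3% between 6 and 8, and 59.1% and 60.2% at 8 or more. Medians and shares thus gave different orders of the groups below 6 and at 8 or more, and members were higher by both only between 6 and 8. The CpG limit and the bins were chosen after values had been seen, and 18 genes share the 22 promoters in the highest bin.

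**Figure D5:**
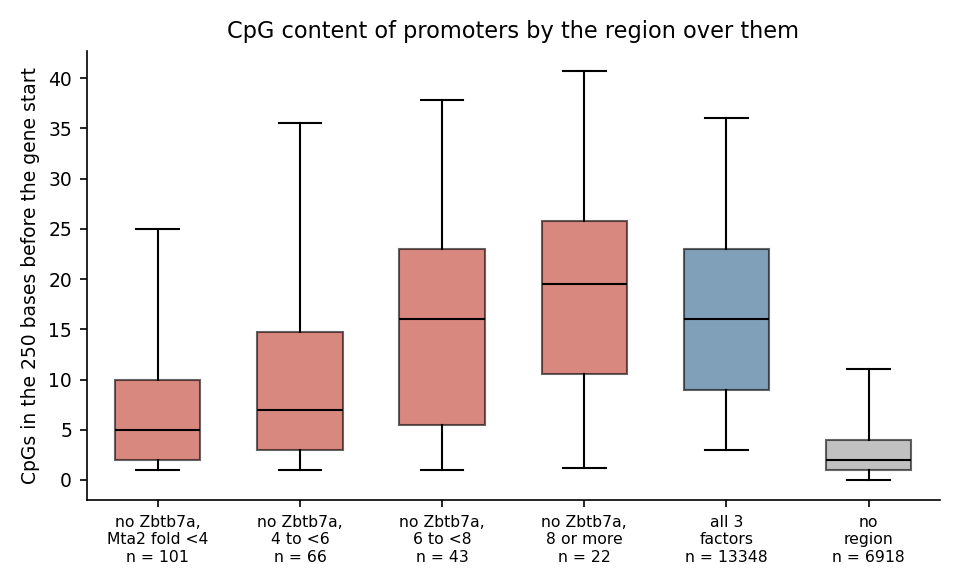
Number of CpGs in the 250 bases before the gene start (vertical) for promoters under members, in 4 classes of Mta2 fold (red), under 3-factor regions (blue) and under no region (grey); boxes give quartiles with the median, whiskers the 5th and 95th percentiles, and n counts promoters. Medians in the red boxes are 5, 7, 16 and 19.5, beside 16 for 3-factor regions and 2 for promoters without a region.

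The letters GACCC, part of the recognition sequence known for human ZBTB7A, were searched on both strands of the same 250 bases. They stood in 31.9% (25.9 to 38.3) of promoters under members, 47.4% (46.6 to 48.3) under 3-factor regions, 30.6% (29.5 to 31.7) without a region and 41.6% of all promoters. GC content moved with this count. Below 50% GC the shares were 16.5% (9.31 to 26.1) under members and 26.5% (24.5 to 28.7) under 3-factor regions. Between 50 and 60% GC they were 37.5% (25.7 to 50.5) and 42.5% (41.0 to 44.0), and at 60% GC or more 43.4% (32.5 to 54.7) and 55.6% (54.4 to 56.7). Members were lower in each class, and the intervals of both groups overlapped in all 3 classes. Overlap of separate intervals does not show equal shares, and the differences were not tested. In the same classes, promoters without a region held GACCC in 22.7%, 44.8% and 54.4%. A longer C-rich motif, CCCTTCCCC, which lies in the human fetal globin promoter that ZBTB7A binds, stood in 2.16% (0.703 to 4.96) of promoters under members, 2.37% (2.12 to 2.64) under 3-factor regions and 2.02% of all promoters. Neither motif contains the other, and a match is a description of letters and not a site. Of the sequences printed above, GACCC on either strand stood in none.

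Most members had a Zbtb7a peak within 10 kb. The nearest Zbtb7a peak lay a median of 3541 bp away, with quartiles of 1197 and 10682 bp. It lay within 500 bp of 9.72% of members, within 1 kb of 21.6% and within 10 kb of 73.8%, and 396 members (2.22%) had none within 100 kb. The nearest 3-factor region lay a median of 3919 bp away and the nearest other member 24288 bp. These gaps also reflect numbers, 101152 3-factor regions against 17832 members. Another member was closer than any 3-factor region for 19.8% of members, while members made up 15.0% of regions with both subunits. Clustering was not tested. Members inside Zbtb7a-free stretches included the regions at Aard, Tfap2d, Oprd1, Lonrf2 and Prkg1, each over 10 kb from a Zbtb7a peak.

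The genes with the most members were long and also held more 3-factor regions. Zbtb20, a zinc finger repressor gene, held 27 members and 72 3-factor regions, and Mecom, a zinc finger regulator of kidney and blood cells, held 23 and 43. Arhgap26 held 23 and 100, Arhgap24 22 and 59, the phosphodiesterase gene Pde4d 21 and 81, and Glis3, a zinc finger factor whose loss causes kidney cysts, 20 and 61. Lrmda held 20 and 73, the RNA-binding protein gene Rbms3 18 and 34, and the receptor phosphatase genes Ptprd and Ptprg 16 each, with 44 and 57. Per 100 kb of gene, Glis3 held 4.75 members and Mecom 4.12, whereas Ptprd held 0.705.

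At the edge of the rule, the member closest to a Zbtb7a peak adjoined it with 0 bp between them, 6873 bp from Dlg4, at a Mta2 fold of 4.59 and a Mbd3 fold of 2.62. The 3-factor region with the smallest overlap shared 2 bp with its Zbtb7a peak, near Snx18, at folds of 3.92 for Mta2, 3.53 for Mbd3 and 2.31 for Zbtb7a. Fewer than 50 bp decided 20 members and 12 3-factor regions.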

How the data were processed

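Chromatin immunoprecipitation with sequencing was run on mouse kidney cortex crosslinked with 2 mM disuccinimidyl glutarate and 1% formaldehyde, per the labels' protocols. The submitters' processing notes name the mm10 build and the tools Bowtie2, deepTools, bedtools and MACS2, without versions or settings. The deposited values were 1 narrowPeak list per factor, each holding the authors' fold enrichment at the summit, −log10 p-value, −log10 q-value, a score and the summit offset. The lowest −log10 q was 1.31 for Mta2 and 1.30 for Mbd3 and Zbtb7a. Read depth per library and Input were not analysed here.

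Python 3.11.15 with pandas 2.3.3, numpy 2.4.6 and scipy 1.17.1 merged the 3 lists, and the merge was tested on simulated data. Where a region held several peaks of a factor, the highest fold was used. Medians, percentiles and bins of fold were taken within a list. Mta2 was set against Mbd3 fold, and the lower of both was ranked, on scales that can differ between antibodies. The Mta2 summit gave each region's position against RefSeq GRCm38.p6 gene spans. Promoters came from 17251 genes, none on chromosome 18. Whether reads or peaks of both mice were combined is not stated. No p-value was computed, since each list holds no value per mouse.

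Members and gene lists were chosen with earlier results of these data known. Named sites were the 10 highest by Mta2 fold, by Mbd3 fold, by the lower of both folds, by Mta2 fold at gene ends and by Mta2 fold without Zbtb7a within 10 kb, the 10 widest and the 10 genes holding most. In each list they were the 3 genes with the strongest member and 2 alphabetically first with none. Some are not reported here. Gene families, bins of fold, width and GC, and the highest-q regions were chosen after values were seen.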

Additional observations from a re-analysis of the deposited data

Results flagged for a closer look

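Chromosome Y lay outside the rule that chose the regions, and it held such regions as well. There, 49 of 109 regions with both Mta2 and Mbd3 had no Zbtb7a peak, 45.0% (exact 95% interval 35.4 to 54.8), with a median Mta2 fold of 2.92 and a median Mbd3 fold of 2.82. The count is given because it lies in data that the comparisons did not use, and the share was not tested against other chromosomes.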

How the results depend on the processing

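Of 53 values under alternatives, 19 kept within their limits, 32 moved and 2 reversed. The number of regions, 17832, moved to 3013 when Mta2 and Mbd3 peaks needed a −log10 q of at least 10 with every Zbtb7a peak kept, and to 43131 when that limit was set for Zbtb7a alone. It stayed within 1.5 times under the other alternatives, at 13668 with −log10 q of at least 10 in all lists, 13984 with no Zbtb7a peak within 1 kb and 15406 with peaks up to 500 bp apart joined. The 13668 were largely not the same regions as the main set. With every Zbtb7a peak kept only 3013 passed that limit, so most of the 13668 held a Zbtb7a peak below it. The count therefore rested on the thresholds of the lists. The share at a gene end, 3.89%, moved to 4.31% and 4.42% under those limits on Mta2 and Mbd3 and on Zbtb7a, 3.47% with peaks joined over 500 bp, 3.44% with no Zbtb7a peak within 1 kb, 2.16% and 11.6% with windows of 0.5 and 3 kb, 7.79% with all annotated genes and 2.03% at gene starts. The median Mta2 fold, 3.65, moved to 4.17 and 5.32 at −log10 q of at least 5 and 10 in all lists, 5.21 and 3.96 under the limits on Mta2 and Mbd3 and on Zbtb7a, 3.69 with joined peaks and 3.75 with no Zbtb7a peak within 1 kb. The median Mbd3 fold, 3.12, moved to 3.52, 4.49, 4.23 and 3.42 under the first 4 of these. The difference from 3-factor regions at gene ends, -10.2 percentage points, was -2.01, -2.69, -2.47, -1.82, -2.42, -3.27, -5.27 and -5.97 in rising bins of Mta2 fold and reversed to 3.89 at 12 or more. In rising bins of width, added after the data were seen, it was -1.33, -1.41, -4.14 and -5.67 and reversed to 2.14 above 1500 bp. In both reversed bins the interval of the difference included 0, and the cause was not tested. Listed genes holding a member numbered 143, and 196 with 10 kb on each side. No paired analysis was possible because 1 list per factor stands for both mice, and for the same reason no replicate could be left out.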

Other observations

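Some microRNA genes lay in the regions. Of 1005 annotated hairpins, 9 overlapped a member and 166 overlapped a 3-factor region. Members covered 6.96 Mb and 3-factor regions 85.2 Mb, and hairpins per covered length were not tested. The highest Mta2 fold among the 9 was 7.09, at Mir1955 inside Phf21a. A 989 bp region on chromosome 2, at a Mta2 fold of 6.88 and a Mbd3 fold of 3.02, held Mir129-2 and, on the opposite strand, Mir129b. A 477 bp region on chromosome 3, at 2.82 and 3.04, held Mir9-1, a microRNA gene known for its role in the developing brain, and its nearest Zbtb7a peak lay 97 bp away. The mature forms of Mir129-2 and Mir9-1, the known neural microRNAs among them, are shown 5′ to 3′ from RefSeq for GRCm38.p6, with the seed, bases 2 to 8, in capitals. No seed is shared among these 4.
miR-129-5p: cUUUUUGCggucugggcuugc
miR-129-2-3p: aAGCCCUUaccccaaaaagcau
miR-9-5p: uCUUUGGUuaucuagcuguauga
miR-9-3p: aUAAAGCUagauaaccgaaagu

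A small set of members had extreme −log10 q without the highest Mta2 folds. Of 19 members with a Mta2 −log10 q above 100, 10 had a Mta2 fold below 10. The Ttc21b region, with the highest Mbd3 fold of all members, was among them. Of those 10, 8 lay between genes, their widths ran between 186 and 530 bp, and the Mbd3 fold exceeded the Mta2 fold in 9. The highest, 102956 bp from Csf2ra on chromosome 19, had a Mta2 −log10 q of 932 at a fold of 5.37, and a Mbd3 −log10 q of 1592 at a fold of 7.08. The Aard region, with the highest Mta2 fold of all members, had 235 and 71.1. Without these 10 the share at a gene end was 3.88%.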
